A study of Mus musculus with 9 samples.

Results

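Fatty acid oxidation breaks acyl chains down to acetyl-CoA in a repeated cycle of dehydrogenation, hydration, a second dehydrogenation and thiolysis, and liver is one of its main sites. Mitochondria take up long-chain acyl groups through the carnitine shuttle and feed the electrons to the respiratory chain. Peroxisomes import very long and branched chains through ABC transporters, shorten them and pass the products on. The nuclear receptor PPARα, encoded by Ppara, is a known activator of genes of both pathways in liver, and fasting and time of day are known to act on it. The set described here has 34 genes of 54532 in the deposited count table, chosen by gene name: 19 of mitochondrial oxidation, 10 of peroxisomes and 5 that belong to both or to other places (Slc22a5, Acsl1, Crat, Acad11 and Eci2). All 34 passed the filter on low counts that kept 14025 genes for testing; the fewest reads of a member in any library were 111, for Abcd2.

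RNA of whole liver of wild-type male C57BL/6 mice, all on normal chow, was sequenced in 9 libraries, 3 per group. Young mice were 8 weeks old, and no injection is described for them. Old mice of both kinds were studied at 20 months, after an injection at 14 months into the tail vein and the subcutaneous white fat (sWAT) of adeno-associated virus 9 (AAV9), which delivers genes to cells. The old control virus carried the negative control hairpin (AAV9-shRNA-Neg), and the other, given in the same amount, carried a hairpin that targets Fabp4, the fatty acid binding protein of adipocytes and macrophages (AAV9-shRNA-Fabp4). Age and injection therefore cannot be told apart in either comparison with young mice, and which promoter drives the hairpins is not given in the sources used here. Labels call the tissue liver while their extraction text names NRVMs, but 8 hepatocyte markers summed to 71789 to 167369 CPM (counts scaled to library size) in every library. In bulk tissue, fewer cells of a type and less RNA per cell cannot be told apart. No source says that the libraries of a group are more than separate samples, so p-values measure the spread between these samples.

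Total counts ran from 14243344 to 17125440 per library, so 3 counts stood for 0.175 to 0.211 CPM; such floors cover counting error only. Fabp4, the target, had 7.21, 13.6 and 10.9 CPM in old control libraries 1, 2 and 5 and, in the old Fabp4 shRNA group, 11.2, 3.81 and 7.58 CPM in libraries 1, 3 and 6, so that the groups overlapped (log2 fold change −0.49 ± 1.16, SE; edgeR adjusted p = 0.960). The fit takes the spread of a gene over all 9 libraries, so the young values, given next, enter that SE and p. Young libraries 1 and 5 had 3.40 and 2.67 CPM of Fabp4, and the remaining young library had 64.8. That library is called unnumbered here, since its column bears a number that no young sample title has. It stood apart: 10 skeletal muscle markers summed to 3810 CPM in it, to 82.8 CPM in old Fabp4 shRNA library 3, and to at most 2.66 CPM elsewhere. Its column in the deposited FPKM table holds other reads than its column of counts, and reads recovered from the FPKM column gave lower levels for 32 of the 34 members (Ehhadh 211 in place of 1262 CPM, Acadvl 34.5 in place of 127 CPM). Fabp4 was at 2.2 CPM of the total of the recovered reads, beside 62.7 CPM of the total in the count column. Cpt1b, the muscle form of the carnitine palmitoyltransferase, was at 0.192 CPM in the count column and at most 0.607 CPM in any library. The part that muscle RNA or this mismatch has in the young values below was not tested. Values without this library are also given for several of the members that it changes.

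Sequence was examined in 2 places. The first is the pair of peroxisomal thiolases, Acaa1a and Acaa1b, which cleave the last bond of the peroxisomal cycle. Their coding sequences, the longest open reading frames of the GENCODE M21 transcripts Acaa1a-201 and Acaa1b-201, are each 1275 bases long and 96.55% identical, with 44 differences and an identical run of 327 bases. A read inside that run fits both genes, so how their reads were divided is uncertain. The stretch that tells them apart best, bases 259 to 318 counted from the start codon, holds 11 of the differences, in capitals:
Acaa1a: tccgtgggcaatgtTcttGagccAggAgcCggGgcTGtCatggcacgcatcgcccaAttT
Acaa1b: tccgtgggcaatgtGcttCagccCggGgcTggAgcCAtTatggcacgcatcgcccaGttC

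The second is the promoter, since PPARα with its partner RXR binds pairs of AGGTCA that are 1 base apart. RefSeq windows of GRCm38.p6, from 250 bases before to 50 bases after a gene's start, matched 29 members with 31 windows. On both strands, with up to 2 mismatches allowed in all, such a pair was found in 3 members, 9.68% of the 31 windows, against 3.86% of all 32851. With 1 mismatch the counts were 0 of the 31 windows and 0.55% of all. All 3 matches were in mitochondrial genes. Each is printed on the strand of the gene, with the whole pair in capitals, its spacer and its 2 mismatches included. A match is a description of the letters, not a bound site.
Echs1, 83 bases before the start, chr7:140116484-140116512, minus strand: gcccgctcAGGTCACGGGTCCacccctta
Etfa, 77 bases before the start, chr9:55512300-55512328, minus strand, pair on the other strand: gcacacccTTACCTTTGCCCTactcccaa
Slc25a20, 6 bases after the start, chr9:108662134-108662162, plus strand: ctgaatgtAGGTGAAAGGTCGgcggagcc

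Levels between genes were compared per length, as the median FPKM (fragments scaled to gene length and library size) over the 8 libraries whose 2 tables match. The highest mitochondrial members were Acaa2, the thiolase of the mitochondrial cycle, at 538 FPKM and Acadl, the long-chain acyl-CoA dehydrogenase, at 198 FPKM. The highest peroxisomal members were Acaa1b at 478 FPKM and Ehhadh, which joins the hydratase and second dehydrogenase steps in 1 protein, at 355 FPKM. At the low end stood Abcd2, a peroxisomal transporter of very long chains, at 2.76 FPKM and Acad10, an acyl-CoA dehydrogenase family member, at 3.16 FPKM. Acaa1a, the paralog of Acaa1b, was lower, at 69.7 FPKM, with 47820 reads over all libraries beside 160122. FPKM also depends on gene length, and M21 exons cover 4414 bases of Acaa1a and 1962 of Acaa1b. How the reads of this pair were divided is uncertain.

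Members differed in how widely they varied among the libraries. Ehhadh had the widest range, 10.1-fold between young library 1 and old Fabp4 shRNA library 3, followed by Acadvl (7.58-fold), the very long-chain acyl-CoA dehydrogenase of the inner mitochondrial membrane. Eci2, an enoyl-CoA isomerase, varied by 1.38-fold and Etfa by 1.46-fold. Old Fabp4 shRNA library 3 was the highest of all 9 for 17 of 34 members, old control library 2 for 6. Young library 1 was the lowest for 11 members, old control library 1 for 10 and old control library 5 for 8. Members above their own mean numbered 8, 23 and 16 in young libraries 1, unnumbered and 5, then 2, 26 and 8 in old control libraries 1, 2 and 5, then 22, 29 and 26 in old Fabp4 shRNA libraries 1, 3 and 6. Each old Fabp4 shRNA library thus had most members above their mean, but so did old control library 2 and the unnumbered young library.

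**Figure D1:**
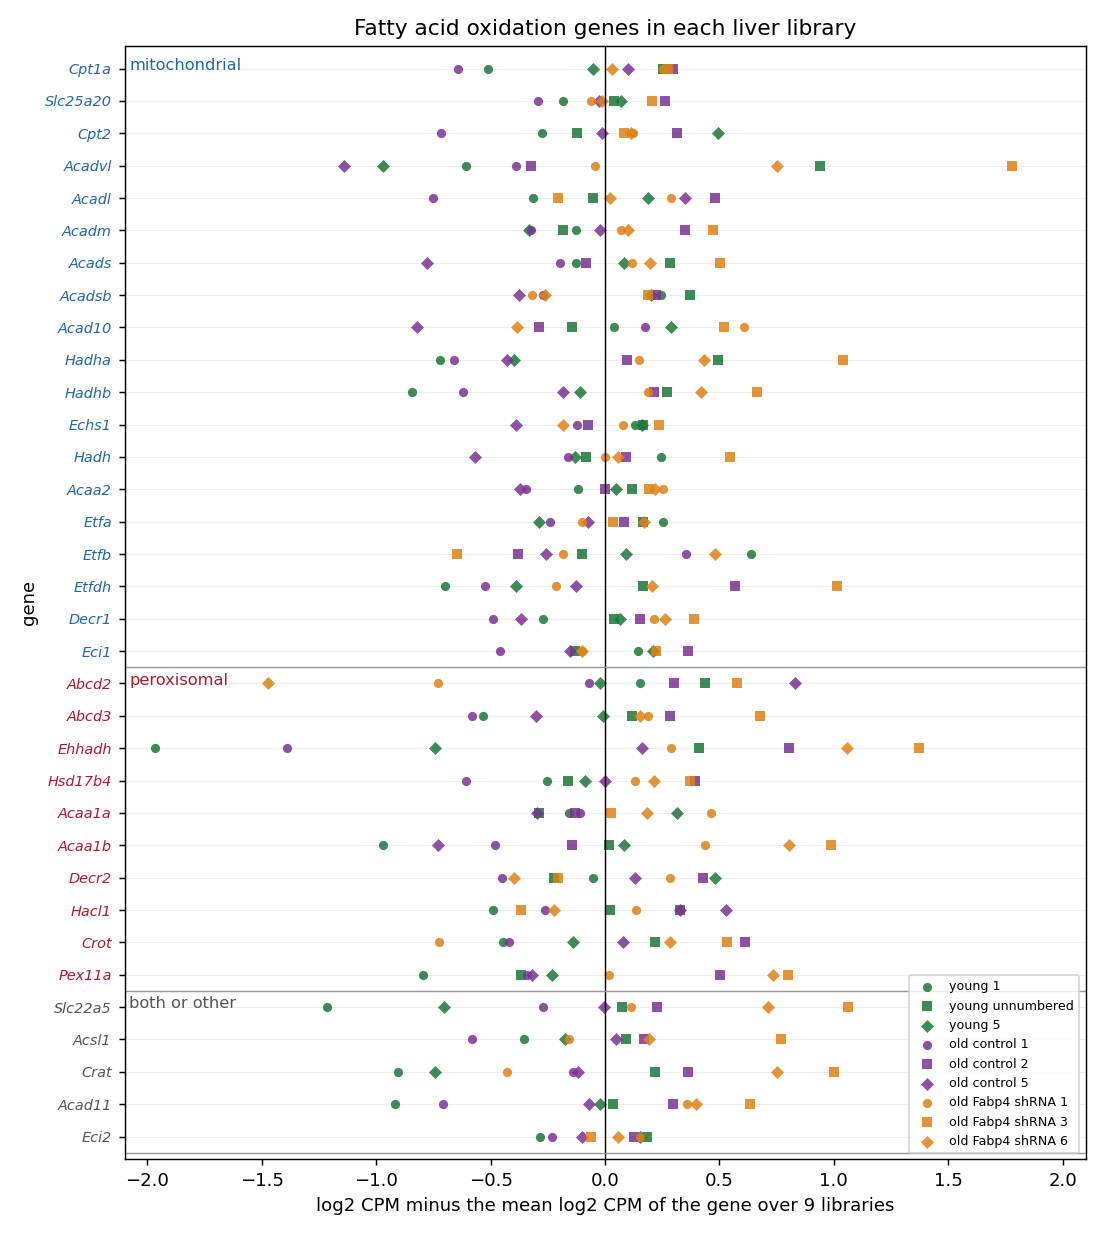
Each row is a member and each point a library, placed by its log2 CPM minus that gene's mean log2 CPM over the 9 libraries; colour gives the group and the shape the library within it. Old Fabp4 shRNA library 3 (orange squares) is the highest for 17 of 34 members, and the spread is widest for Ehhadh and Acadvl.

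Across the 9 libraries, Pearson correlations of log2 CPM had a median of 0.397 over 171 pairs of mitochondrial members, 0.268 over 45 pairs of peroxisomal members and 0.320 over 190 pairs across the compartments. All pairs share the libraries and their scaling, and the values describe these libraries. Abcd3, a peroxisomal ABC transporter, followed the mean of the other members most closely (r = 0.986, 9 libraries). Hadhb and Hadha, both subunits of the mitochondrial trifunctional protein, came next at 0.961 and 0.938. Etfb ran the other way, at −0.706, while Etfa, with which it forms the electron transfer flavoprotein, was at 0.242. Etfb had 41.6 CPM in old Fabp4 shRNA library 3, its lowest value, and 101 CPM in young library 1, its highest. Outside the set, the genes most like the mitochondrial mean were Slc35e1 (r = 0.981), Zfp874a, Ubxn2a, Gfra1 and Lactb (0.953), and those most like the peroxisomal mean were Stam2 (0.970), Gtf2h1, Cald1, Usp47 and Mttp (0.947), each over 9 libraries.

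Mitochondrial and peroxisomal members were compared first within each library, as the mean log2 CPM of the 19 minus that of the 10. The difference was −0.13, −0.40 and −0.55 in young libraries 1, unnumbered and 5, then −0.39, −0.73 and −0.82 in old control libraries 1, 2 and 5, then −0.49, −0.60 and −0.52 in old Fabp4 shRNA libraries 1, 3 and 6. Group means were −0.36 ± 0.22, −0.65 ± 0.22 and −0.53 ± 0.05 (SD, n = 3), and the groups overlapped, so no shift between the compartments stood clear of the spread. With the recovered reads the unnumbered young library was at −0.24. The peroxisomal mean ran from 7.56 to 8.13 in young, 7.64 to 8.45 in old control and 8.16 to 8.59 in old Fabp4 shRNA libraries. The mitochondrial mean ran from 7.43 to 7.73, 7.25 to 7.72 and 7.67 to 7.99 log2 CPM. Both means were thus lowest in young library 1 or old control library 1 and highest in old Fabp4 shRNA library 3.

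**Figure D2:**
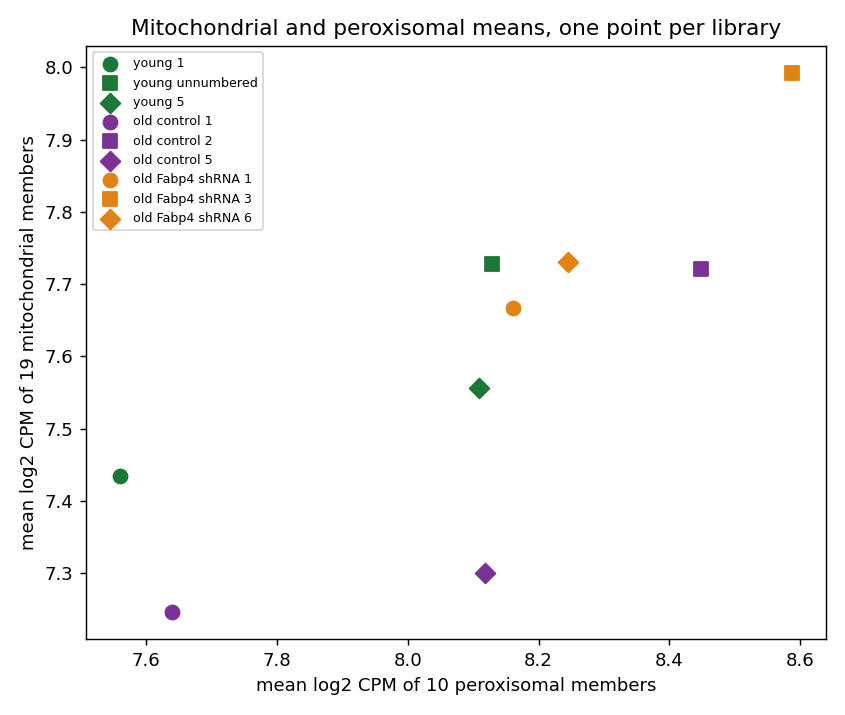
Each point is a library, with the mean log2 CPM of the 10 peroxisomal members on the x axis and of the 19 mitochondrial members on the y axis. Both means are highest in old Fabp4 shRNA library 3, at 8.59 and 7.99, and the colours of the 3 groups overlap.

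With age and injection together (old control against young), no member differed at an adjusted p under 0.05 (edgeR, 0 of 34, against 0.0357% of all tested genes). At an unadjusted p under 0.05 no member was higher, against 6.42% of all genes, and none was lower, against 4.07%; DESeq2 also called none after adjustment. The median log2 fold change was −0.16 for the mitochondrial and 0.18 for the peroxisomal members, beside 0.01 for all tested genes. Of the mitochondrial members 14 of 19 had lower means in old controls, and of the peroxisomal members 4 of 10. The groups did not overlap for 1 member that was lower, against 8.26% of all genes, and for none that was higher, against 8.89%.

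That member was Echs1, the short-chain enoyl-CoA hydratase, with 179.9, 184 and 184 CPM in the young libraries and 151, 156 and 125 CPM in the old controls (log2 fold change −0.34 ± 0.20, SE; edgeR adjusted p = 0.562). Acads, the short-chain dehydrogenase, had 111, 148 and 128 CPM in young and 106, 115 and 70.8 CPM in old control libraries, with its lowest value in old control library 5 (−0.41 ± 0.23; edgeR adjusted p = 0.553). Acadsb, which acts on short branched chains, had 136, 149 and 132 CPM and then 95.3, 134 and 88.7 CPM, where old control library 2 lay among the young values (−0.39 ± 0.23; edgeR adjusted p = 0.558). Slc22a5, the plasma membrane carnitine transporter, was the exception in direction among the 4 smallest p-values, with 27.0, 65.9 and 38.5 CPM in young and 51.9, 73.2 and 62.4 CPM in old control libraries (0.51 ± 0.32; edgeR adjusted p = 0.593). Without the unnumbered library its log2 fold change was 0.91, and 2 members, Slc22a5 and Crat, were then higher at an unadjusted p under 0.05, as were 813 of all genes (901 with it). Acadvl and Hadha turned direction without that library, from −0.62 to 0.17 and from −0.18 to 0.23. Ehhadh moved from 0.57 to 1.32 without that library (edgeR adjusted p = 0.492) and to 1.57 with the recovered reads (edgeR adjusted p = 0.272).

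In old mice, the Fabp4 hairpin group had higher means than the control group for 29 of 34 members, 18 of 19 mitochondrial, 6 of 10 peroxisomal and 5 of 5 others, while 48.58% of all tested genes had a positive fold change. None of the 34 passed at an adjusted p under 0.05 in edgeR, where 0% of all tested genes did and the lowest adjusted p was 0.427, and none did in DESeq2. At an unadjusted p under 0.05, 5 members were higher (Acaa1b, Acadvl, Acads, Hadha and Decr1), against 3.27% of all genes, and none was lower, against 3.48%. Median log2 fold changes were 0.24 for mitochondrial and 0.34 for peroxisomal members, against −0.01 for all tested genes. The groups did not overlap for 8 members that were higher (the same 5 with Acaa2, Acaa1a and Acad11), against 6.02% of all genes, and for none that was lower, against 5.67%. The count of 5 was 1 without old Fabp4 shRNA library 3, 1 without old control library 5 and 10 without old control library 2. Over all genes, the count of 458 higher was then 356, 230 and 436. The count of members was 8 without hairpin library 1, beside 735 of all genes. It was 7 without the unnumbered young library, which enters the shared estimate of spread, beside 613 of all genes.

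Acaa1b had 707, 893 and 594 CPM in old control libraries 1, 2 and 5, whereas the old Fabp4 shRNA libraries 1, 3 and 6 had 1337, 1953 and 1724 CPM. Every hairpin value lay above every control value, with a log2 fold change of 1.19 ± 0.31 (edgeR unadjusted p = 0.00204, adjusted p = 0.728). It ran from 1.07 to 1.37 when each library was left out in turn. Acaa1a, its paralog, had 305, 300.3 and 268 CPM against 454, 336 and 374 CPM, again without overlap but with a smaller difference (0.41 ± 0.23; edgeR adjusted p = 0.768). The difference between the paralogs' fold changes was not tested, and their shared coding sequence limits how well their reads can be told apart.

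Acadvl had 50.4, 52.9 and 30.0 CPM in old control and 64.1, 227 and 111 CPM in old Fabp4 shRNA libraries (1.59 ± 0.58; edgeR adjusted p = 0.728). Library 3 was the highest by far, and without it the log2 fold change was 0.98. Hadha, which carries the long-chain hydratase and dehydrogenase of the trifunctional protein, had 179.5, 303 and 211 CPM against 315, 583 and 383 CPM (0.89 ± 0.35; edgeR adjusted p = 0.728), and again library 3 stood highest. Hadhb, the thiolase subunit, had a log2 fold change of 0.59 ± 0.30. Acads had 132, 172 and 139 CPM in old Fabp4 shRNA libraries, all above the old control values (0.60 ± 0.23; edgeR adjusted p = 0.728). Decr1, the mitochondrial dienoyl-CoA reductase for unsaturated chains, was at 0.50 ± 0.23, whereas its peroxisomal counterpart Decr2 was at −0.16 ± 0.29.

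The 2 mitochondrial members with the highest FPKM behaved differently. Acaa2 had 651, 826 and 639 CPM in old control and 984, 944 and 960.4 CPM in old Fabp4 shRNA libraries, close together within the latter (0.45 ± 0.22; edgeR adjusted p = 0.741). Young libraries had 762, 896 and 855 CPM of Acaa2. Acadl had 225, 528 and 482 CPM in old control, 461, 328 and 384 CPM in old Fabp4 shRNA and 304, 364 and 430.2 CPM in young libraries, so that all groups overlapped; it was the mitochondrial member with a negative log2 fold change (−0.07 ± 0.30). Of the other enzymes of the cycle, Acadm, the medium-chain dehydrogenase, was at 0.20 ± 0.24, Hadh, the short-chain hydroxyacyl dehydrogenase, at 0.41 ± 0.24, Etfdh, which passes electrons to ubiquinone, at 0.38 ± 0.37 and Eci1, an enoyl-CoA isomerase, at 0.06 ± 0.24. Hsd17b4, the bifunctional enzyme for branched chains in peroxisomes, was at 0.26 ± 0.26. The carnitine shuttle had small differences: Cpt1a, the outer membrane palmitoyltransferase, was at 0.22 ± 0.28, Slc25a20, the acylcarnitine carrier, at 0.05 ± 0.21 and Cpt2, the inner membrane enzyme, at 0.18 ± 0.28. Among peroxisomal members, Abcd2 (−0.69 ± 0.44), Hacl1, the lyase of α-oxidation (−0.37 ± 0.26), Decr2 and Crot, the carnitine octanoyltransferase (−0.03 ± 0.35), had negative values.

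**Figure D3:**
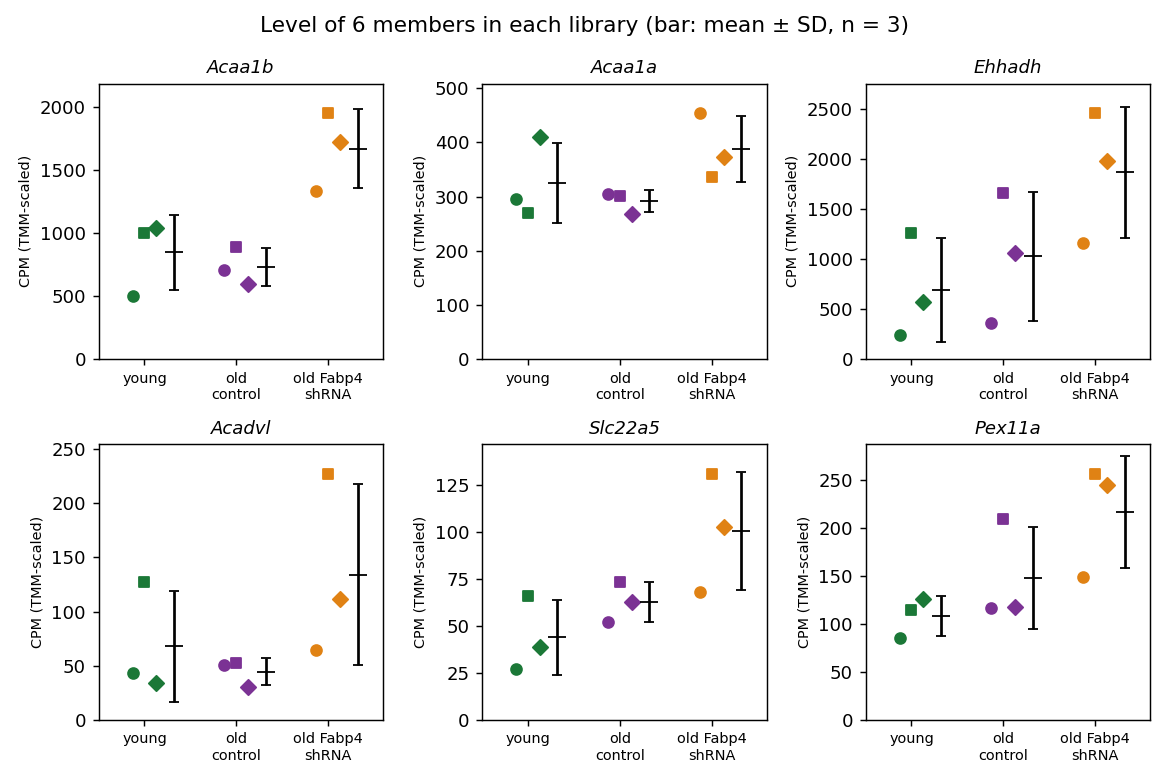
CPM of Acaa1b, Acaa1a, Ehhadh, Acadvl, Slc22a5 and Pex11a in each library, by group; shapes mark the libraries as in the plot of all members, and bars are mean ± SD (n = 3). Acaa1b lies between 1337 and 1953 CPM in old Fabp4 shRNA libraries and at most at 1044 CPM in the others. Ehhadh overlaps between all groups, where hairpin and young overlap through the unnumbered young library alone.

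Old Fabp4 shRNA against young mice, a comparison that shares its libraries with both others, also gave no member past an adjusted p of 0.05 (edgeR and DESeq2, 0 of 34, against 0.057% of all tested genes in edgeR). At an unadjusted p under 0.05, 5 members were higher (Slc22a5, Pex11a, Acaa1b, Crat and Acad11), against 4.43% of all genes, and none was lower, against 4.5%. Of these 5, 2 are peroxisomal members and 3 are of both or other places. That make-up changed when single libraries or the filter on low counts were left out. Without the unnumbered young library 10 members were higher, 4 of them mitochondrial (Acadvl, Hadha, Hadhb and Etfdh), beside 1001 of all genes (622 with it). Without hairpin library 1 there were 8, 3 of them mitochondrial (Hadha, Hadhb and Etfdh), beside 1096 of all genes. Without the filter there were also 8, with the same 3, beside 1032. Without young library 1, hairpin library 3 or hairpin library 6 there were 3, 0 of them mitochondrial, beside 372, 350 and 566. In the fit to all 9 libraries, medians were 0.20 for mitochondrial, 0.33 for peroxisomal and 0.02 for all tested genes. The groups did not overlap for 9 members that were higher, against 6.79% of all genes, and for 1 that was lower, Acadsb, against 6.66%. With the reads recovered for the unnumbered young library, 13 members were higher at an unadjusted p under 0.05, 6 of them mitochondrial, beside 1359 of all genes. Slc22a5 then passed the adjusted threshold (log2 fold change 1.63, edgeR adjusted p = 0.0277).

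Slc22a5 had 67.7, 131 and 103 CPM in old Fabp4 shRNA libraries 1, 3 and 6, and the lowest of these was just above the unnumbered young library at 65.9 CPM (1.20 ± 0.33; edgeR adjusted p = 0.366). Without that young library the log2 fold change was 1.62 (edgeR adjusted p = 0.103). Pex11a, a membrane protein that promotes peroxisome division, had 84.9, 114 and 126 CPM in young, 116, 209 and 118 CPM in old control and 149, 256 and 245 CPM in old Fabp4 shRNA libraries (1.00 ± 0.30; edgeR adjusted p = 0.401). Crat, the carnitine acetyltransferase of mitochondria and peroxisomes, had 64.5, 141 and 72.3 CPM in young, 109.7, 155 and 111 CPM in old control and 89.7, 242 and 204 CPM in old Fabp4 shRNA libraries, where hairpin library 1 lay below the unnumbered young library alone (0.95 ± 0.38; edgeR adjusted p = 0.513). Without that library the log2 fold change of Crat was 1.39 (edgeR adjusted p = 0.206), and with the recovered reads 1.52 (edgeR adjusted p = 0.0625). Against young, Acadvl was at 0.98 ± 0.58 with the unnumbered library and 1.81 ± 0.49 without it, and Hadha at 0.70 ± 0.35 and 1.15 ± 0.34. Young Acaa1b values were 503, 998 and 1044 CPM, all below the hairpin group (0.98 ± 0.31; edgeR adjusted p = 0.428). Young Acaa1a values were 296, 269 and 409.7 CPM, and they overlapped with it.

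Ehhadh had 243, 1262 and 568 CPM in young, 363, 1656 and 1062 CPM in old control and 1161, 2458 and 1979 CPM in old Fabp4 shRNA libraries. All groups overlapped, but hairpin and young did so through the count column of the unnumbered library alone. With the recovered reads that library was at 211 CPM, below every hairpin value. The log2 fold change of the hairpin group against young was 1.43 ± 0.66 (edgeR adjusted p = 0.561). Without the unnumbered library it was 2.21, and with the recovered reads 2.46 (edgeR adjusted p = 0.0767).

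**Figure D4:**
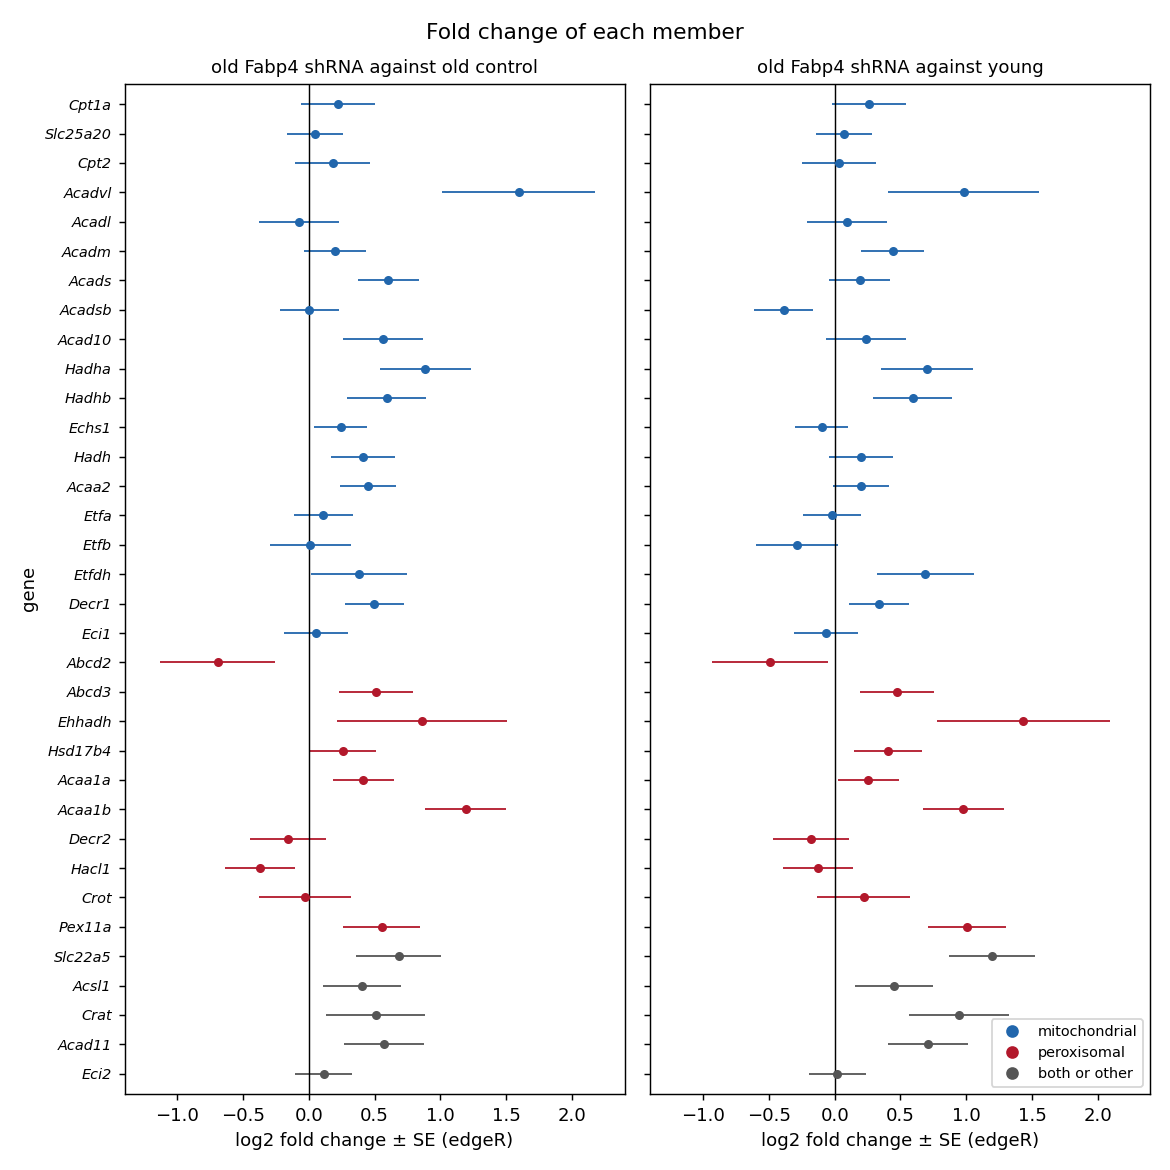
Log2 fold change ± SE of each member, from edgeR over all 9 libraries, for old Fabp4 shRNA against old control (left) and against young (right); colour gives the compartment. On the left 29 of 34 points lie above 0, with Acadvl at 1.59 and Acaa1b at 1.19; no point passed the adjusted threshold in either panel.

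Markers of feeding state varied between single libraries, and several markers of time of day did not overlap between young and old control libraries. Ppara had 107 CPM in old Fabp4 shRNA library 3 and 20.5 to 36.9 CPM in the other 8. Pdk4, a fasting-induced PPARα target that spares glucose, had 233 CPM there and 192 CPM in the count column of the unnumbered young library. That young library's recovered reads put Pdk4 at 3.39 CPM of the total, beside 185 CPM of the total in the count column. Pdk4 had 64.4 CPM in old Fabp4 shRNA library 6 and 2.21 to 53.1 CPM in the remaining libraries. Dbp, a clock output gene with a strong daily rhythm, had 100.3, 32.4 and 90.1 CPM in young, 0.581, 0.589 and 16.4 CPM in old control and 53.5, 0.496 and 4.86 CPM in old Fabp4 shRNA libraries. Of 9 clock markers, 6 did not overlap between young and old control libraries, against 8.89% of all genes higher and 8.26% lower. Dbp, Tef, Per3 and Ciart were lower in old control, and Arntl and Npas2 higher. Only 1 of the 9 had an unadjusted p under 0.05 there (edgeR), and none was called after adjustment. In the other comparisons no clock marker was without overlap. Of 5 fasting markers, 0 were without overlap in either comparison with old control. Between hairpin and young 1 was: Cyp4a14, at 4445, 5653 and 4039 CPM against 1496, 3381 and 2346 CPM. Of all genes, 6.79% were likewise higher. All 5 had positive fold changes in both hairpin comparisons. Red cell markers summed to 520 to 1025 CPM in young and 170.05 to 359 CPM in all old libraries, and stellate cell markers to 116 to 149.8 CPM against 184 to 346 CPM. The sum over hepatocyte markers was 71789 to 90644 CPM in old Fabp4 shRNA and 87237 to 134248 CPM in old control libraries. The part that feeding, time of day or cell make-up has in the members' values was not tested.

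Other genes of the pathways gave no call in any comparison by edgeR after adjustment. Of 13 tested other mitochondrial oxidation genes, 8 had higher means with the Fabp4 hairpin than in old control (median log2 fold change 0.13), and Pccb, a subunit of propionyl-CoA carboxylase, had the smallest p (0.74 ± 0.24). In old control against young it was Acad12, an acyl-CoA dehydrogenase family member (−0.73 ± 0.30), and in hairpin against young Mcee, the methylmalonyl-CoA epimerase (−0.86 ± 0.27). Of 14 other peroxisomal genes, 11 had lower means in old control than in young mice (median −0.31). With the hairpin, 7 of the 14 had higher means than in old control (median −0.002) and 4 had higher means than in young mice (median −0.36). In old control against young the list was led by Nudt7, a CoA diphosphatase of peroxisomes, at 114, 376 and 254 CPM in young and 56.8, 93.7 and 78.8 CPM in old control libraries (−1.70 ± 0.48; edgeR adjusted p = 0.296). Those groups did not overlap. Nudt7 also had the smallest p of this list with the hairpin (0.83 ± 0.47), and against young it was Slc25a17, a peroxisomal membrane carrier (−0.50 ± 0.19). Of 15 peroxins, which build peroxisomes, 12 had higher means with the hairpin (median 0.24), led by Pex6, an ATPase of the import machinery (0.69 ± 0.23; edgeR adjusted p = 0.728) and at 0.53 ± 0.23 against young. Pex26, which anchors that ATPase to the membrane, was at −0.84 ± 0.33 in old control against young. Among 8 acyl-CoA synthetases, Slc27a4 was at 0.96 ± 0.27 with the hairpin and Acsm1, a medium-chain enzyme, at −0.47 ± 0.21 in old control against young and −0.42 ± 0.21 in hairpin against young. Of 5 ketone body genes, Slc16a6 had the smallest p in all comparisons (1.21 ± 0.37 in old control against young, −0.82 ± 0.36 with the hairpin, 0.39 ± 0.37 against young), and of 5 carnitine supply genes Tmlhe, the first enzyme of carnitine synthesis, was at 0.54 ± 0.35 with the hairpin and 0.73 ± 0.35 against young, and Slc16a9, a transporter linked to carnitine, at 0.70 ± 0.69 in old control against young. Among 13 regulators, Rxra, the partner of PPARα, had 254, 248 and 183 CPM in old control and 351, 425 and 372 CPM in old Fabp4 shRNA libraries (0.75 ± 0.22; edgeR adjusted p = 0.728), without overlap. Ppara was at 1.27 ± 0.42 in old Fabp4 shRNA against young (edgeR adjusted p = 0.458), and Esrra, an estrogen-related receptor of oxidative metabolism, at −0.66 ± 0.26 in old control against young (edgeR adjusted p = 0.410).

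Several members share exon sequence with a gene on the opposite strand, and the strand setting of the counting is among the steps not given in the sources used here. For example, Acadvl (chr11:70010183-70015411, GRCm38, minus strand) shares 1151 of its 2686 exon bases with Dvl2, which had 637 reads over all libraries beside 12378 for Acadvl. Acaa1b (chr9:119148023-119157093, minus strand) shares 224 bases with Dlec1, which had 213 reads beside 160122. Hacl1 shares 108 bases with Btd, which had 12982 reads beside 9302 for Hacl1.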

How the data were processed

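Liver RNA-seq of 9 libraries in 3 groups was analysed from the deposited tables. Reads were aligned with HISAT2 to GRCm38.p6, per the submitters' processing notes; the counter, its strand setting and the annotation were not given in the sources used here. As files, the authors deposited raw read counts and, separately, FPKM scaled to length and library size. Columns without a sample or group numbered 0. The young column whose number is in no young sample title was placed by its letter. In 8 columns, FPKM and count kept 1 ratio per gene (relative tolerance 0.001) in 100% of 10483 genes, and in that column in 0.229%; 100% of 17252 of its values scaled back to whole reads within 0.05 reads.

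The count test was edgeR 4.0.16, run in R 4.3.3 (filterByExpr, TMM factors 0.825 to 1.15, robust quasi-likelihood, 1 mean per group over 9 libraries, 6 residual degrees of freedom, two-sided, Benjamini-Hochberg over 14025 genes). CPM are TMM-scaled. The authors' FPKM served for levels between genes and, in limma 3.58.1 on log2(FPKM + 1 or + 0.1), as an alternative; DESeq2 1.42.0, limma-voom, other scalings and filters, and leaving out libraries were the others. The pipeline was tested on simulated data. Members and lists were chosen with earlier results of these data known. All members are named; library values are given for the 4 smallest p-values per comparison, the 2 highest FPKM per compartment and both Acaa1 paralogs, and for Fabp4, Ppara, Pdk4 and Dbp. Each other pathway list is named by any gene called and by its smallest p per comparison. Protein targeting signals were not analysed here.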

Additional observations from a re-analysis of the deposited data

How the results depend on the processing

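Fold changes kept their sign under all alternatives run for 13, 24 and 22 of the 34 members in old control against young, Fabp4 hairpin against old control, and hairpin against young. Precision rests on 3 libraries per group, and no depth limit was met, as each member had at least 111 reads in each library. Library totals alone moved the median of all tested genes to 0.16, 0.13 and 0.31 in these 3 comparisons and the split of genes at an unadjusted p under 0.05 from 901 higher and 571 lower to 1298 and 199, from 458 and 488 to 790 and 208, and from 622 and 631 to 1935 and 172. With that scaling 13 members were higher at an unadjusted p under 0.05 against old control and 16 against young, where the mitochondrial median was 0.48. The causes of these and the following shifts were not tested.

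In old control against young, called genes (5 in the fit reported) numbered 137 without a filter on low counts, 168 with DESeq2, 3 with limma-voom, 15 when fitted to the 6 libraries compared, and 18 and 21 with limma on log2(FPKM + 1) and log2(FPKM + 0.1). Members higher at an unadjusted p under 0.05 numbered 3 with either FPKM fit and 3 with the recovered reads, beside 972, 1007 and 1096 of all genes (901 in the fit reported). Acaa1b turned to 0.13 with either FPKM fit and to 0.066 with the recovered reads, and Acaa1a to 0.042 without young library 5. In hairpin against old control, called genes (0 in the fit reported) numbered 8 without the filter, 7 with DESeq2 and 1 with either FPKM fit, and members higher at an unadjusted p under 0.05 numbered 10 without the filter and 8 with the recovered reads, beside 744 and 688 of all genes (458 in the fit reported). In hairpin against young, called genes (8 in the fit reported) numbered 94 without the filter, 124 with DESeq2, 0 with limma-voom (548 genes higher, 643 lower without adjustment at p under 0.05), 0 with 6 libraries (503 and 508), 53 and 77 with the FPKM fits and 57 with the recovered reads. Members called there numbered 2 without the filter (Slc22a5, adjusted p = 0.0133, and Pex11a, 0.0474), 1 with either FPKM fit and 1 with the recovered reads, each time Slc22a5. Members higher at an unadjusted p under 0.05 numbered 8 without the filter and 13 with either FPKM fit or the recovered reads, beside 1032, 1081, 1134 and 1359 of all genes (622 in the fit reported). For the unnumbered young library, both FPKM fits use the FPKM column from which the reads were recovered. These alternatives thus share that replacement and are not independent of each other.

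Without the unnumbered young library and old Fabp4 shRNA library 3 together, an alternative chosen after seeing the data, called genes numbered 8, 0 (474 higher, 441 lower without adjustment) and 1 in the 3 comparisons, members higher at an unadjusted p under 0.05 numbered 2, 3 and 8, and members lower 0, 1 and 1. With the 5 members of both or other places counted as mitochondrial, the mitochondrial minus peroxisomal mean of the hairpin group was −0.45.

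Leaving out each library in turn gave 1 to 10 called genes in old control against young, 0 to 1 in hairpin against old control and 0 to 37 in hairpin against young, and no member called. Members higher at an unadjusted p under 0.05 ran from 0 to 2, 1 to 10 and 3 to 10, and members lower from 0 to 1, 0 to 1 and 0 to 2. The mitochondrial median ran from −0.38 to −0.037, 0.19 to 0.43 and 0.09 to 0.23, and the peroxisomal median from −0.08 to 0.38, 0.19 to 0.48 and 0.25 to 0.49. The lowest mitochondrial median in old control against young came without old control library 2. Acaa1a in that comparison ran from −0.31 to 0.042. In hairpin against young the count of 5 was 3 without young library 1, 3 without hairpin library 3 or 6, 10 without the unnumbered young library and 8 without hairpin library 1.

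By sample title, young and old control libraries share the numbers 1 and 5. A fit with the replicate block on those 4 libraries called 315 genes in old control against young, and at an unadjusted p under 0.05 put 3 members higher and 1 lower. Deviations from the group means correlated at 0.107 between the libraries numbered 1 and at 0.026 between those numbered 5. The column number of the unnumbered young library is also that of old control library 2, and their deviations correlated at 0.059. With 3 libraries per group such values cannot decide whether libraries were paired, and pairing was not tested further.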
